A study of Mus musculus with 15 samples.

Results

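Mouse cortical neurons exposed to kainate were compared at the first and the last sampled time, 5 h and 24 h, on 6 of the 15 bead arrays of a study of kainate-induced neuronal death. The members were chosen by the labelled time alone, 3 arrays per time, and every probe of the deposited non-normalized signals entered. Both groups were primary neocortical cultures from foetal Swiss albino mice of gestation day 15 to 16, at culture day 5, treated with 100 µM kainate that had been made up as a stock in sodium hydroxide and diluted in NeuroBasal medium. The same cultures after 15 h of kainate (3 arrays) and after vehicle (6 arrays, time 0) are given beside them. Each of 3 beadchips, the glass slides that carry the arrays, held 1 array of every kainate time and 2 controls, so that each 24 h array was set against the 5 h array of its own beadchip. The position on the beadchip was the same for all arrays of a group and the hours in kainate are also hours in culture, so that position, culture time and kainate time cannot be told apart. Nothing in the labels states that the 3 arrays of a time came from separate cultures, and the p-values then measure only the spread between these samples.

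Kainate opens AMPA and kainate receptors, the fast glutamate-gated channels of cortical neurons. Sustained opening depolarises the cell, admits sodium and, directly or through voltage-gated channels, calcium, and in cultured neurons leads to excitotoxic death over hours to days. Calcium entry switches on immediate early genes such as the Fos, Jun and Egr families through CREB and serum response factor. These factors in turn act on later genes of synapses, survival and stress, and the early genes themselves usually subside when the stimulus ends. The comparison of 24 h with 5 h asks which parts of the early response subsided, which persisted and what had changed by the end of the exposure.

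From 5 h to 24 h, early transcription factors such as Fosb and Egr4, the neuropeptide genes Npy and Nts and most measured genes of cholesterol synthesis fell, while the iron exporter gene Slc40a1, the exchanger gene Slc24a4, the neuropeptide genes Adcyap1 and Cartpt and several astrocyte, oligodendrocyte and complement genes rose. Fewer of the astrocyte and oligodendrocyte rises held when each array was centred on its own median. The presynaptic, postsynaptic, tubulin, cell cycle and ATF4-linked genes that passed the test were mostly lower at 24 h. Of 13050 probes tested, 5730 differed between the times (43.9%), 2922 higher and 2808 lower at 24 h, by limma's moderated test with the beadchip as a block and a Benjamini-Hochberg adjusted p below 0.05. With 1 probe per gene, 2250 of 9155 genes were higher (24.6%) and 1892 lower (20.7%), and these shares are the background for every list below. Changes of at least 2-fold were found in 147 genes upward and 257 downward, and of at least 4-fold in 9 and 12. The 2 groups of arrays did not overlap for 52.3% of all tested probes. Of the 5730 probes that passed, 5687 moved the same way on all 3 beadchips. That count follows in part from the test, which uses the mean of the same 3 differences, and is not separate support.

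The balance of rises and falls depended on how the arrays were scaled to each other. Quantile normalisation, used for every value below unless another scale is named, gives all arrays the same distribution and left a median change of 0.04 (log2) over genes. Centring each array on its own median moved the median change of the tested probes to -0.32, and the authors' deposited ratios moved it to -0.19. Of the probes that passed, 51.0% were higher with quantile normalisation, 12.3% with median centring and 15.4% with the ratios. After median centring 633 genes were higher (6.91%) and 4456 lower (48.7%). Of the 2922 probes called higher, 820 had a negative value after median centring and 18 were called lower, whereas none of the 2808 lower probes was called higher. Of the lower probes, 2796 were called lower after median centring and 2747 in the ratios. A rise of a single gene is therefore a rise with quantile normalisation, and holds under the other scalings only where that is stated.

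**Figure D1:**
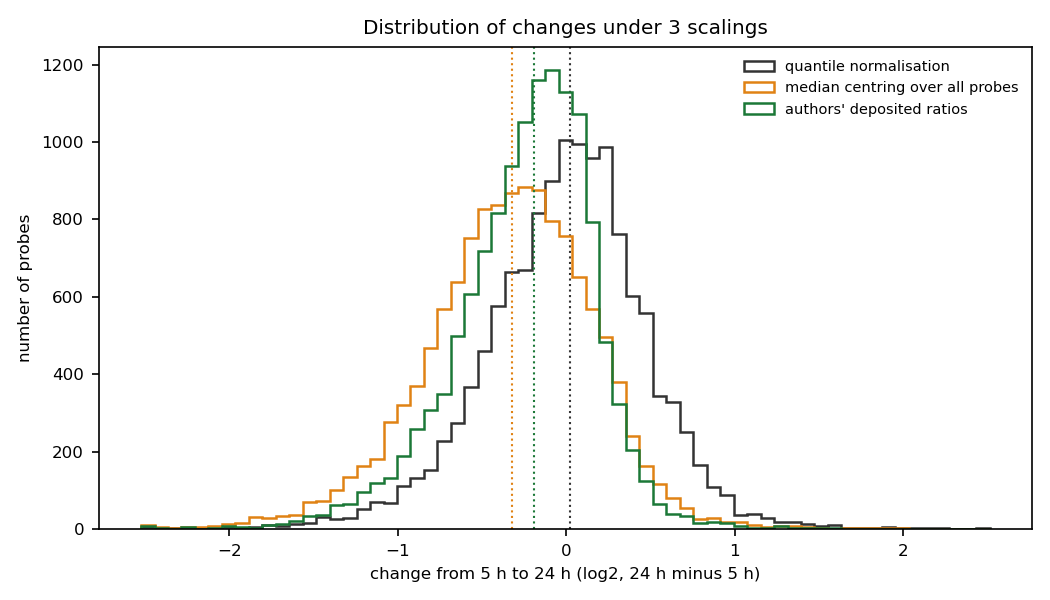
Number of probes (vertical axis) by change from 5 h to 24 h (horizontal axis, log2, 24 h minus 5 h, changes beyond 2.5 shown in the outermost bins) for the 13050 tested probes under 3 scalings, with each median as a dotted line. The quantile-normalised distribution is centred near 0.02, while median centring lies at -0.32 and the authors' ratios at -0.19.

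Immediate early and activity-regulated genes were far above the controls at both times and part of them subsided. Of the 47 listed genes, 37 could be tested, and 19 of these fell, 5 rose and 13 did not pass, with a median change of -0.33 against 0.04 over all genes. Fosb, a partner of Jun proteins in the AP-1 factor, read 12.01, 11.89 and 11.95 on the 3 arrays at 5 h (log2 normalised signal, in the order of the beadchips), 9.39, 9.22 and 9.29 at 15 h and 8.98, 8.76 and 8.75 at 24 h. It fell by 3.12 ± 0.08 on the log2 scale (SE, n = 3 pairs, limma adjusted p = 2.1e-06), a level 8.68-fold higher at 5 h. All 24 h values nevertheless lay far above the 6 controls, which ran from 4.24 to 5.32. Egr4, a zinc finger factor of the early growth response family, gave 12.06, 11.98 and 11.86 at 5 h against 9.23, 9.04 and 9.46 at 24 h, with controls of 5.92 to 7.78. Its change was -2.72 ± 0.13 (adjusted p = 1.46e-05). Egr2 gave 9.67, 9.40 and 9.38 against 7.57, 7.48 and 7.84 (controls 4.94 to 5.85), a change of -1.85 ± 0.12. Atf3, a stress-induced repressor, had come closer to its control level than these 3. Its values were 6.94, 6.97 and 7.32 at 5 h, 6.08, 5.92 and 6.16 at 15 h, 5.32, 4.89 and 4.99 at 24 h and 4.31 to 4.98 in the controls. The 24 h arrays overlapped with control replicate 3 alone, since the other 5 controls reached only 4.47.

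The remaining early genes moved less, and not all in 1 direction. Klf4 (-1.70), Junb (-1.53), Arc (-1.44), which encodes a synaptic protein of AMPA receptor traffic, and Maff (-1.32) fell by more than Fos (-0.94) and Npas4 (-0.89), while Csrnp1 changed by -0.30. Ier3 (1.14), Gadd45g (0.82), the neurotrophin gene Bdnf (0.73), the G-protein regulator gene Rgs2 (0.41) and the phosphatase gene Dusp1 (0.28) rose, although Rgs2 and Dusp1 read -0.02 and -0.36 after median centring. After median centring 1 of the 37 genes was called higher and 27 lower. The mean level of the 37 genes lay 2.48 to 2.54 above the control mean on the 5 h arrays, 2.09 to 2.15 above it at 15 h and 1.92 to 2.05 above it at 24 h, so that most of the early elevation was still present at the end.

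The promoters of the 4 named early genes are shown because they moved together and because CREB, which calcium activates, binds the cyclic AMP response element. They run from 250 bases before the transcription start to the base before it, on the gene's own strand, from RefSeq on build GRCm38.p6, and capitals mark the shortened element TGACG or its reverse complement CGTCA.
Fosb, minus strand, chr7:19310046-19310295: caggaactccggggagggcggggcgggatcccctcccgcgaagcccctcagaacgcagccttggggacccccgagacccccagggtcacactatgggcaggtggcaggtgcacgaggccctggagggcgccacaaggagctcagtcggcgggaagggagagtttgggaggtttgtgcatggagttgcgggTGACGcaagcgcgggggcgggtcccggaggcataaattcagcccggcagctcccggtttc
Egr4, minus strand, chr6:85513590-85513839: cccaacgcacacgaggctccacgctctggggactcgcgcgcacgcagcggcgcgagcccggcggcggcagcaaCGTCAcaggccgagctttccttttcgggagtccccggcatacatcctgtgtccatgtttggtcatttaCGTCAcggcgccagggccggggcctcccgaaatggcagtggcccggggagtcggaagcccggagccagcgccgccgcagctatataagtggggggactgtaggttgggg
Egr2, plus strand, chr10:67537619-67537868: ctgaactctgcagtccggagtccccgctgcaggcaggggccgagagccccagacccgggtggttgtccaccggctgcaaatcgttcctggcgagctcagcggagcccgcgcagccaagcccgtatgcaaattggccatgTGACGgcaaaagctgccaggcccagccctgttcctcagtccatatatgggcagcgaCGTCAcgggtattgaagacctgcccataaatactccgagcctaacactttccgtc
Atf3, minus strand, chr1:191183334-191183583: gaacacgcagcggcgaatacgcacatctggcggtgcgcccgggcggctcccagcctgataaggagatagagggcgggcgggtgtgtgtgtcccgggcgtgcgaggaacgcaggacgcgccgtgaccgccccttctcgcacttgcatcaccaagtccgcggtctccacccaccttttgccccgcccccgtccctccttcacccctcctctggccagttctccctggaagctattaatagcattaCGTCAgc

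RefSeq lists several starts for Egr2, of which 1 with matches is shown. The Egr2 stretches chr10:67535249-67535498 and chr10:67537316-67537565, before other listed starts, held neither TGACG nor CGTCA. Over windows of 300 bases (250 before and 50 after any listed start, both strands), TGACG was found for 21 of the 29 early genes with a promoter in the table (72.4%), against 35.2% of 7435 tested genes and 6228 of all 27025 genes. Among the 16 early genes with a promoter that fell, 14 held it (87.5%). The full element TGACGTCA, which contains the shorter letters, was found for 3 of the 29 (10.3%, against 3.6% of tested genes), and the AP-1 letters TGANTCA for 2 (6.9%, against 6.2%). The exact core of the serum response element was in none of the 29 and in 21 of all genes. A match of letters is a description of the window and not a measured binding site, and genes with several listed starts had more windows to match.

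The other 9 of the 12 largest falls included 2 neuropeptide genes and several genes of secreted, metabolic or synaptic proteins. Npy, the gene of neuropeptide Y in cortical interneurons, had the largest fall of all genes. It read 9.77, 9.66 and 9.61 at 5 h, 7.11, 7.06 and 6.98 at 15 h and 6.62, 6.28 and 6.25 at 24 h, a change of -3.30 ± 0.09 or 9.82-fold (adjusted p = 2.1e-06). The 5 h arrays stood within or just below the controls (9.70 to 10.11). Nts, the neurotensin gene, went from 9.33, 9.32 and 9.26 to 6.97, 7.13 and 7.30, with controls of 8.96 to 9.24. Lor, which encodes the epidermal envelope protein loricrin, went from 9.69, 9.54 and 9.60 to 6.94, 6.84 and 7.10 (-2.65 ± 0.09, controls from 9.70 upward). Dcn, the gene of the matrix proteoglycan decorin, went from 9.82, 9.80 and 9.71 to 7.54, 7.37 and 7.40 (-2.34 ± 0.10, controls 9.80 to 10.03). Other Dcn probes changed by -2.15, -1.99 and -0.43. In these 4 genes the 5 h arrays were near the controls, the 24 h arrays were far below both, and the 15 h arrays were nearer to 24 h than to 5 h.

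Acss2, the cytosolic enzyme that makes acetyl-CoA from acetate, read 10.84, 10.83 and 10.89 at 5 h, 9.28, 9.12 and 9.30 at 15 h and 8.45, 8.54 and 8.65 at 24 h, a change of -2.31 ± 0.09. Another Acss2 probe changed by only -0.46 ± 0.10. Rit2, a neuronal Ras-like GTPase gene, went from 10.12, 10.13 and 10.10 to 7.86, 8.14 and 8.34 (-2.0 ± 0.11). Both were within their control ranges at 5 h. Cxcl14, a chemokine gene, was above its controls (7.0 to 7.38) at 5 h with 7.62, 7.49 and 7.55 and below them at 24 h with 5.62, 5.24 and 5.78. Organisers of synapses complete the list, the cerebellin gene Cbln1 and the neurexophilin gene Nxph2. Cbln1 went from 10.61, 10.57 and 10.50 to 8.02, 8.53 and 8.61 (-2.17 ± 0.14, controls 11.04 to 11.24). Nxph2 was already low at 5 h with 6.78, 6.93 and 7.04 against controls of 9.40 to 9.65, and at 24 h it was not detected on any array (4.44, 4.43 and 4.43), so that 5 h was at least 4.60-fold higher.

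The largest rises were of genes for transport, lipid and retinoid metabolism, and signalling, with no single family among them. Slc40a1, the gene of the iron exporter ferroportin, read 5.67, 5.52 and 5.79 at 5 h, 8.25, 8.16 and 8.12 at 15 h and 8.19, 8.20 and 8.74 at 24 h, and rose by 2.72 ± 0.13 or 6.57-fold (adjusted p = 1.56e-05). Its 5 h arrays lay within the controls (5.18 to 6.37). Bdh2, a cytosolic dehydrogenase gene linked to ketone bodies and iron-binding siderophores, read 6.18, 6.24 and 6.21 at 5 h, 8.92, 8.86 and 8.93 at 15 h and 8.24, 8.35 and 8.89 at 24 h (2.28 ± 0.14, controls 5.64 to 6.12). Slc24a4, a potassium-dependent sodium-calcium exchanger gene, went from 4.82, 4.83 and 4.82 to 7.07, 7.10 and 6.92 (2.21 ± 0.09). It was detected on 2 of the 3 arrays at 5 h and on 1 of 6 controls, so that its fold rests on a level near background. Gcnt1, an enzyme gene of O-glycan branching, went from 5.84, 5.93 and 6.06 to 8.07, 8.10 and 8.26, and Rdh5, a retinol dehydrogenase gene, from 6.61, 6.54 and 6.70 to 8.40, 8.52 and 8.80, both from levels within their controls.

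Signalling genes among the largest rises were high at both later times. Rasgrf1, a calcium-activated exchange factor for Ras, read 9.78, 9.91 and 9.87 at 5 h, 11.45, 11.64 and 11.48 at 15 h and 11.74, 11.76 and 11.80 at 24 h (1.92 ± 0.09, controls 9.36 to 10.21). Rgs16, which shortens G-protein signals, read 7.45, 7.59 and 7.53 at 5 h, 9.20 on each array at 15 h and 9.76, 9.83 and 9.52 at 24 h (2.18 ± 0.10). Omg, the gene of oligodendrocyte myelin glycoprotein, which neurons also express, went from 9.20, 9.35 and 9.25 to 11.36, 11.41 and 11.03, with controls of 8.90 to 9.78. For all 3 the 24 h arrays lay above every control. Bves, a membrane protein gene that binds cyclic AMP, was not detected at 5 h or in the controls and at 24 h read 6.72, 7.08 and 6.79, at least 4.16-fold higher. Ccl21b, a chemokine gene with near-identical copies that the probe may not tell apart, was detected on 1 array at 5 h and on no control and read 6.87, 7.08 and 6.69 at 24 h.

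Thrsp and Lims2 were below the controls at 5 h and rose back to or past them. Thrsp, a thyroid hormone-responsive gene of fat synthesis, read 5.95, 5.78 and 5.88 at 5 h and 7.96, 8.01 and 8.22 at 24 h, with controls of 6.77 to 8.06. Lims2, an adaptor gene of integrin adhesions, read 6.00, 5.85 and 5.80 at 5 h, 7.34, 7.33 and 7.13 at 15 h and 8.02, 7.90 and 8.06 at 24 h, with controls of 7.33 to 7.81. In both, every 5 h array lay below every control. All 24 genes with the largest changes kept their direction and passed under median centring and in the authors' ratios, and without any 1 array or beadchip. They were chosen from the same arrays as the largest changes that passed, so that this follows in part from the choice and is not separate support.

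**Figure D2:**
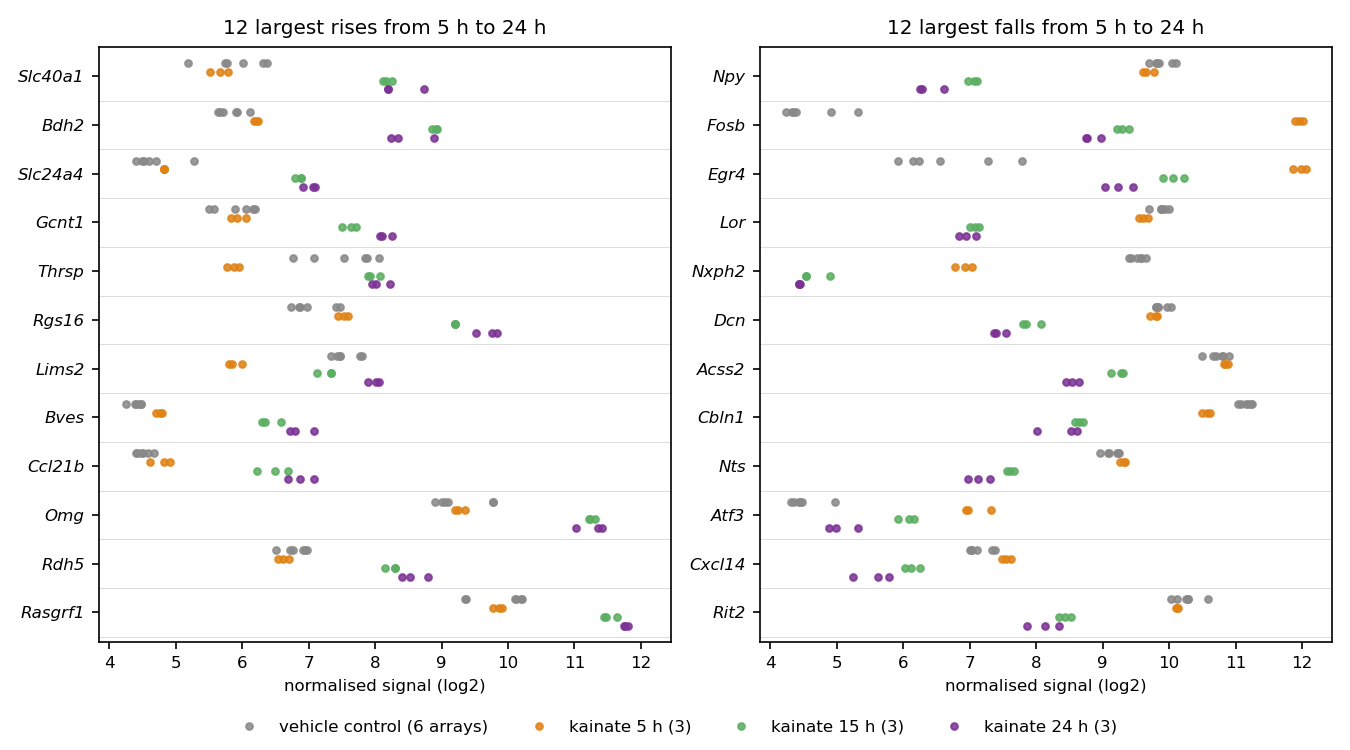
Normalised signal (horizontal axis, log2) on every array for the 12 genes with the largest rises (left) and the 12 with the largest falls (right) from 5 h to 24 h, 1 point per array and a row of points per group. Npy, Lor and Dcn stay near the controls at 5 h and drop by 15 h, whereas Fosb and Egr4 lie far above the controls at 5 h and remain above them at 24 h.

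Genes of transmitter release and synapse structure fell more often than they rose. Of 32 presynaptic genes tested (of 40 listed), 16 fell, 5 rose and 11 did not pass, with a median of -0.33. Rab3b, a vesicle GTPase gene, went from 8.25, 8.35 and 8.20 at 5 h to 6.56, 6.82 and 6.79 at 24 h (-1.54 ± 0.11). Doc2b, a calcium sensor gene of vesicle fusion, changed by -1.50 ± 0.13, the synapsin gene Syn2 by -1.39 ± 0.13 and Slc17a7, the vesicular glutamate transporter VGLUT1, by -1.39 ± 0.11. Slc17a7 did not follow an even course, with 8.98, 8.90 and 8.92 at 5 h, 6.84, 7.17 and 7.25 at 15 h and 7.43, 7.56 and 7.65 at 24 h. Pclo, the active zone scaffold piccolo, rose by 0.70 and Unc13a, Doc2a, Slc17a6 and Vamp1 by 0.32 to 0.35, but after median centring Slc17a6 and Doc2a read -0.20 and -0.19, none of the 32 genes was called higher and 26 were called lower. Of 26 postsynaptic scaffold and adhesion genes (of 37 listed), 13 fell, 2 rose and 11 did not pass, with a median of -0.33. Lin7b, a scaffold gene, went from 8.93, 9.08 and 9.18 to 7.54, 7.74 and 7.56, and Lrrtm3, a leucine-rich adhesion gene, from 5.99, 5.98 and 5.94 to 4.89, 5.22 and 5.34.

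Receptor genes were divided. Of 12 ionotropic glutamate receptor and auxiliary genes tested (of 22 listed), 5 fell, 2 rose and 5 did not pass, with a median of -0.06. Those that fell included some genes of both receptor types that kainate opens, but not the types as a whole. The brightest AMPA receptor gene, Gria2 (-0.03), and the kainate receptor genes Grik5 (-0.00) and Grik4 (0.07) did not pass. Grik1, a kainate receptor subunit gene, read 6.31, 6.42 and 6.58 at 5 h and 5.25, 5.61 and 5.55 at 24 h (controls 7.05 to 7.86), and its auxiliary gene Neto1 5.99, 5.92 and 6.05 against 5.60, 4.94 and 4.62. The AMPA receptor gene Gria1 read 8.98, 8.99 and 9.27 against 8.42, 8.19 and 7.35, and Cnih2, which promotes AMPA receptor export, changed by -1.42 ± 0.17. In Gria1 the 24 h array of beadchip 3 was far below the other 2, and its change of -1.09 ± 0.24 passed with an adjusted p of 0.00795. Cnih3 (0.73, and 0.26 after median centring) and the NMDA receptor gene Grin2c (0.70, and 0.39) rose, and 1 of the 12 was called higher after median centring.

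Of 11 GABA genes tested (of 25 listed), 5 fell, 3 rose and 3 did not pass, with a median of -0.27. Gad1, which makes GABA from glutamate, read 10.76, 10.79 and 10.52 at 5 h and 10.01, 9.71 and 10.30 at 24 h (-0.68 ± 0.15), and lost its call without beadchip 1 or beadchip 2. The receptor subunit genes Gabra3 and Gabrb2 changed by -1.10 ± 0.14 and -0.69 ± 0.09. Dlx2, a homeobox gene of interneuron precursors, moved upward, from 9.76, 9.71 and 9.65 to 10.55, 10.62 and 10.90, although a second Dlx2 probe did not pass.

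Neuropeptide genes split to a greater width than any other list, from -3.30 to 1.61. Of 18 tested (of 26 listed), 6 rose, 5 fell and 7 did not pass, with a median of 0.00, or -0.23 after median centring. Adcyap1, the gene of the peptide PACAP, read 8.35, 8.42 and 8.42 at 5 h, 9.39, 9.51 and 9.28 at 15 h and 9.99, 10.20 and 9.82 at 24 h, with controls of 7.47 to 7.85. Cartpt, the CART peptide gene, read 8.59, 8.60 and 8.60, then 10.20, 10.38 and 10.29, then 10.22, 10.23 and 10.02, with controls of 6.35 to 7.72. Both were above every control already at 5 h and rose further, by 1.61 ± 0.10 and 1.56 ± 0.09. Tac1 (0.89), Pdyn (0.73), Scg2 (0.61) and Nmb (0.54) rose, while Grp (-1.36), Chga (-0.78) and Cort (-0.40) fell with Npy and Nts.

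Among 29 neuronal cytoskeleton and axon growth genes tested (of 34 listed), 18 fell, 3 rose and 8 did not pass, with a median of -0.48. Crmp1, a mediator of semaphorin signals on microtubules, read 13.06, 13.14 and 13.13 at 5 h, 11.36, 11.46 and 11.55 at 15 h and 11.45, 11.38 and 11.28 at 24 h (-1.74 ± 0.10, controls 12.60 to 12.82). The neuronal tubulin gene Tubb3 read 7.92, 8.0 and 7.81 against 6.50, 6.84 and 6.99, and the alpha tubulin gene Tuba1a, whose probe may be shared with close copies, changed by -1.98 ± 0.22. The growth cone gene Gap43 (-0.79), the axonal tau gene Mapt (-0.49) and the dendritic Map2 (-0.48) fell too, while Dclk1 (0.80), Ank2 (0.62) and the kinesin gene Kif5c (0.60) rose and were not called higher after median centring. Of 28 voltage-gated channel genes (of 42 listed), 7 fell, 4 rose and 17 did not pass, with a median of -0.11. The sodium channel gene Scn1a read 5.82, 6.48 and 5.85 at 5 h and 7.58, 7.63 and 7.19 at 24 h, and the calcium channel subunit gene Cacna2d1 rose by 1.12 ± 0.21, whereas the potassium channel partners Kcnab1 (-1.41 ± 0.14) and Kcnip4 (-1.20 ± 0.14) fell.

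Of 23 genes of calcium sensing, buffering and pumping (of 32 listed), 9 fell, 4 rose and 10 did not pass, with a median of -0.21. The neuronal sensor gene Hpca read 9.61, 9.91 and 10.07 at 5 h and 7.89, 8.20 and 8.04 at 24 h (-1.82 ± 0.10, controls from 9.62 upward). Calm2, 1 of several calmodulin genes, changed by -1.44 ± 0.22, the calcineurin subunit gene Ppp3ca by -1.11 ± 0.12 and the kinase gene Camkk2 by -0.91 ± 0.13. None of the 23 was called higher after median centring.

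Cholesterol synthesis was the list with the lowest median. Of 17 genes tested (of 25 listed), 13 fell, 1 rose and 3 did not pass, with a median of -1.20, and -1.66 after median centring. Tm7sf2, a sterol reductase gene, read 8.99, 8.86 and 8.71 at 5 h, 7.34, 7.27 and 7.34 at 15 h and 7.09, 6.81 and 7.01 at 24 h (-1.89 ± 0.10). Fdps, which makes farnesyl diphosphate, read 12.94, 13.07 and 13.11, then 11.43, 11.47 and 11.64, then 11.33, 11.34 and 11.12 (-1.78 ± 0.11, controls 13.04 to 13.60). Mvd, the mevalonate decarboxylase gene, and Lss, the lanosterol synthase gene, changed by -1.74 ± 0.10 and -1.65 ± 0.11. Insig1 (-1.57), Nsdhl (-1.53), Mvk (-1.46), Msmo1 (-1.41), Dhcr7 (-1.20), Stard4 (-1.11), Sqle (-1.06), Cyp51 (-0.94) and Hsd17b7 (-0.31) fell as well, while Srebf2, the gene of the factor that drives this pathway, rose by 0.37 with quantile normalisation and read -0.10 after median centring. The mean of the 17 genes was 10.05 to 10.06 on the 5 h arrays, 9.11 to 9.18 at 15 h and 9.0 to 9.06 at 24 h. In the controls it was 9.72 and 9.75 on replicates 1 and 3 and 10.43 to 10.45 on the other 4, so that 5 h lay between these controls and 24 h below all 6. The sterol element letters TCACNCCAC were found in the promoter window of 1 of the 14 genes with a listed promoter (7.1%, against 1.5% of tested genes). Of the 13 genes that fell, 10 had a listed promoter and none of these held the letters. Only this exact spelling was searched, in the same short windows, so that the counts do not show whether other forms of the element were present.

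In glycolysis, 9 of 17 genes tested (of 23 listed) fell, 2 rose and 6 did not pass, with a median of -0.32. The hexokinase gene Hk1 (-0.87 ± 0.14), Aldoc (-0.81 ± 0.08) and Pfkl (-0.75 ± 0.16) fell, and Pfkl lost its call without beadchip 1 or 2. Pfkp, the platelet-type phosphofructokinase gene, moved the other way, from 6.55, 6.86 and 7.01 at 5 h to 8.36, 8.38 and 8.05 at 24 h. Of 38 oxidative phosphorylation genes (of 47 listed), 11 fell, 2 rose and 25 did not pass, with a median of -0.13. The cytochrome oxidase subunit genes Cox7b (-0.95 ± 0.11), Cox7a2 (-0.86 ± 0.11) and Cox6c (-0.67 ± 0.10) led the falls.

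Several genes of fatty acid use rose while 2 fatty acid binding protein genes fell. Of 19 genes in the list of PPAR targets and lipid fuel (of 33 listed), 8 rose, 3 fell and 8 did not pass, with a median of 0.40. After median centring the median was 0.03, with 4 called higher and 7 lower. Angptl4, an inhibitor of lipoprotein lipase, read 9.18, 9.25 and 9.39 at 5 h, 10.81, 10.83 and 10.96 at 15 h and 10.91, 10.99 and 10.67 at 24 h, against controls of 6.68 to 7.16. Plin4, a lipid droplet coat gene, was not detected at 5 h or in the controls and read 5.91, 5.96 and 6.22 at 24 h, at least 2.33-fold higher. Acadvl, a first enzyme of long-chain fatty acid oxidation, went from 9.27, 9.17 and 9.25 to 10.26, 10.14 and 10.67, and Pdk4 (0.77) and Acadm (0.50) rose. Hadha (0.80) rose too, but was detected on no array at 5 h and was tested through its 24 h arrays alone. Fabp7, a fatty acid binding protein of radial glia, changed by -1.80 ± 0.13, from 6.34, 6.39 and 7.21 to 4.45, 4.91 and 5.19, and Fabp5 by -0.91.

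Targets of ATF4, the factor of the integrated stress response, mostly fell. Of 27 tested (of 35 listed), 14 fell, 2 rose and 11 did not pass, with a median of -0.40. Nupr1, a stress-induced chromatin protein gene, read 7.86, 7.84 and 7.89 at 5 h, 6.78, 6.80 and 6.89 at 15 h and 6.22, 6.13 and 6.16 at 24 h. Chac1, which degrades glutathione, read 11.22, 11.19 and 11.33, then 9.91, 10.01 and 10.05, then 9.71, 9.76 and 9.73. Their controls ran from 7.02 to 8.15 and from 9.66 to 11.42, but their upper ends came from control replicates 1 and 3 alone (11.42 and 11.30 for Chac1, 7.88 and 8.15 for Nupr1). The other 4 controls ran from 7.02 to 7.37 and from 9.66 to 9.77, below every 5 h array of these genes. The mean of the 27 genes likewise stood 0.42 and 0.43 above the control mean on replicates 1 and 3 and at -0.26 to -0.19 on the other 4, against 0.36 to 0.44 above it at 5 h. Eif4ebp1 (-1.13 ± 0.09) and Ppp1r15a (-0.99 ± 0.13) fell, and Ddit3, which encodes CHOP, rose by 0.50.

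The other stress lists had members moving both ways. In the unfolded protein response, 4 of 17 genes tested (of 28 listed) rose and 4 fell, with a median of 0.18 that turned to -0.31 after median centring. The chaperone-linked genes Pdia6 (-0.97 ± 0.10), Herpud1 (-0.94 ± 0.11) and Hsp90b1 (-0.75 ± 0.08) fell, while the ubiquitin ligase gene Syvn1, below all controls at 5 h with 9.67, 9.77 and 9.76, read 10.53, 10.59 and 10.78 at 24 h. Among cytosolic heat shock genes, 6 of 17 tested (of 24 listed) rose and 3 fell, with a median of 0.26, or -0.26 after median centring. Hspa2 (0.92 ± 0.09) and Dnajb2 (0.87 ± 0.10) rose, and Dnajb4 (-1.26 ± 0.26) and Hsp90aa1 (-1.20 ± 0.17, detected on 1 array at 24 h) fell. Of 32 NRF2, glutathione and antioxidant genes (of 44 listed), 9 rose and 8 fell, with a median of 0.16, or -0.30 after median centring. The glutathione transferase genes Gsta4 (1.32 ± 0.09) and Mgst1 (0.88 ± 0.10) rose from 5 h to 24 h, whereas Osgin1 (-1.21 ± 0.17) and the sulfiredoxin gene Srxn1 (-0.84 ± 0.08) fell, the last from 9.79, 9.91 and 9.90 to 8.95, 9.02 and 9.11 against controls of 8.10 to 8.34.

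Death-linked genes changed little as lists. Of 23 p53 targets tested (of 32 listed), 7 rose and 4 fell, with a median of 0.07 that turned to -0.17 after median centring. Mdm2, the ligase that degrades p53, rose by 0.61 ± 0.11 and the exonuclease gene Aen by 0.59 ± 0.12, and neither passed after median centring or in the authors' ratios. Of 27 Bcl2 family and caspase genes (of 40 listed), 5 rose and 7 fell, with a median of -0.02. Hrk, a neuronal BH3-only death gene, read 6.30, 6.56 and 6.71 at 5 h and 5.12, 5.62 and 5.73 at 24 h (controls 6.63 to 6.84), a change of -1.03 ± 0.11. The executioner caspase gene Casp6 rose by 0.72 ± 0.08 with quantile normalisation and did not pass after median centring. 

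Protein breakdown genes were mixed by compartment. Of 34 lysosome and autophagy genes (of 41 listed), 16 rose, 5 fell and 13 did not pass, with a median of 0.16 that turned to -0.34 after median centring, where 1 was called higher and 18 lower. Wipi1, an autophagosome gene, rose by 0.99 ± 0.09 and Cd63, a lysosomal membrane gene, by 0.76 ± 0.09, the latter not passing after median centring. The galactosidase gene Gla fell from 6.87, 6.52 and 6.81 at 5 h to 4.61, 4.87 and 5.06, near its undetected controls of 4.31 to 4.62, and the autophagy gene Gabarapl2 changed by -1.52 ± 0.16, with another probe of it not passing. Of 18 calpain and cathepsin genes (of 25 listed), 5 rose and 5 fell, with a median of 0.09, or -0.34 after median centring. Serpina3n, a protease inhibitor gene of reactive astrocytes, read 7.15, 7.20 and 7.13 at 5 h and 8.28, 8.21 and 8.54 at 24 h. Ctsz rose by 0.98 ± 0.09, and Capn5 (-0.99 ± 0.09) and the neuroserpin gene Serpini1 (-0.83 ± 0.10) fell. Of 34 proteasome genes (of 36 listed), 5 rose and 6 fell, with a median of 0.02, or -0.50 after median centring, led by Psmd6 at -1.13 ± 0.25, a call lost without beadchip 1 or 2. Of 31 cytosolic ribosomal protein genes tested (of 54 listed), 5 rose and 2 fell, with a median of 0.12, or -0.32 after median centring. Rpl38 changed by -0.76 ± 0.10, while the rise of Rpl5 by 0.39 ± 0.10 turned to a negative value under both other scalings.

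Cell cycle and DNA replication genes fell from a level above the controls. Of 46 tested (of 59 listed), 25 fell, 2 rose and 19 did not pass, with a median of -0.37. Cdk1, the mitotic kinase gene, read 8.18, 8.27 and 8.32 at 5 h, 7.46, 7.55 and 7.59 at 15 h and 6.98, 6.93 and 7.11 at 24 h (-1.25 ± 0.08), with controls of 6.23 to 7.42. Ccnd1, the G1 cyclin gene, went from 9.43, 9.52 and 9.58 to 8.49, 8.60 and 8.11, and Aurka changed by -1.0 ± 0.17. E2f1, the S-phase factor gene, was above all controls (8.32 to 8.47) at 5 h with 8.85, 8.85 and 8.72 and below all of them at 24 h with 7.75, 7.72 and 7.78. The mean of the 46 genes was 0.61 to 0.62 above the control mean at 5 h and 0.18 to 0.27 above it at 24 h, and 2 of the 6 controls themselves stood 0.30 above it.

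Immune lists moved little. Of 21 interferon and class I genes tested (of 38 listed), 5 rose and 3 fell, with a median of 0.11, or -0.09 after median centring. Tap2, a peptide transporter gene of antigen presentation, read 5.91, 5.59 and 6.07 at 5 h, below all controls (6.18 to 6.58), and 7.49, 7.02 and 7.88 at 24 h. Of 21 inflammatory and NF-kB genes (of 40 listed), 2 rose and 5 fell, with a median of 0.13, or -0.23 after median centring. Stat3, a factor of cytokine signalling, went from 8.97, 8.89 and 8.86 to 10.35, 10.48 and 9.70, and Tnfrsf12a, the TWEAK receptor gene, from 8.96, 9.03 and 9.06 to 7.94, 7.96 and 8.19, still above its controls of 7.14 to 7.57. The adhesion gene Vcam1 rose by 0.39 ± 0.13, a call lost under most other settings and a negative value under both other scalings.

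Growth factor, matrix and Notch genes included strong changes in both directions. Of 25 growth factor and receptor genes (of 42 listed), 6 rose and 8 fell, with a median of 0.16, or -0.28 after median centring. Igf1 went from 4.90, 5.36 and 5.11 to 6.10, 6.36 and 6.18, and the binding protein gene Igfbp2 from 9.58, 9.72 and 9.63 to 8.60, 8.65 and 8.35. Of 31 matrix and protease genes (of 45 listed), 10 rose and 5 fell, with a median of 0.12, or -0.13 after median centring. Mmp14, a membrane-bound matrix protease gene, read 9.24, 9.34 and 9.19 at 5 h and 10.77, 10.63 and 10.78 at 24 h (1.47 ± 0.10), and the laminin gene Lamb2 rose by 1.1 ± 0.10. Ccn1, a matrix protein gene that is also an early gene, went from 8.12, 8.08 and 8.23 to 6.88, 7.10 and 7.12, with controls of 4.36 to 5.10. Of 15 Notch genes (of 20 listed), 5 rose and 2 fell, with a median of 0.11, or -0.24 after median centring. Notch1 itself went from 7.91, 7.87 and 7.88 to 9.33, 9.0 and 9.37, and its target Nrarp (0.89 ± 0.11) and ligand Dll1 (0.76 ± 0.10) rose. The 2 that fell were the ligand gene Jag2 (-0.44) and the target Hey2 (-0.37). The targets Hes1, Hes5 and Hey1 did not pass.

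**Figure D3:**
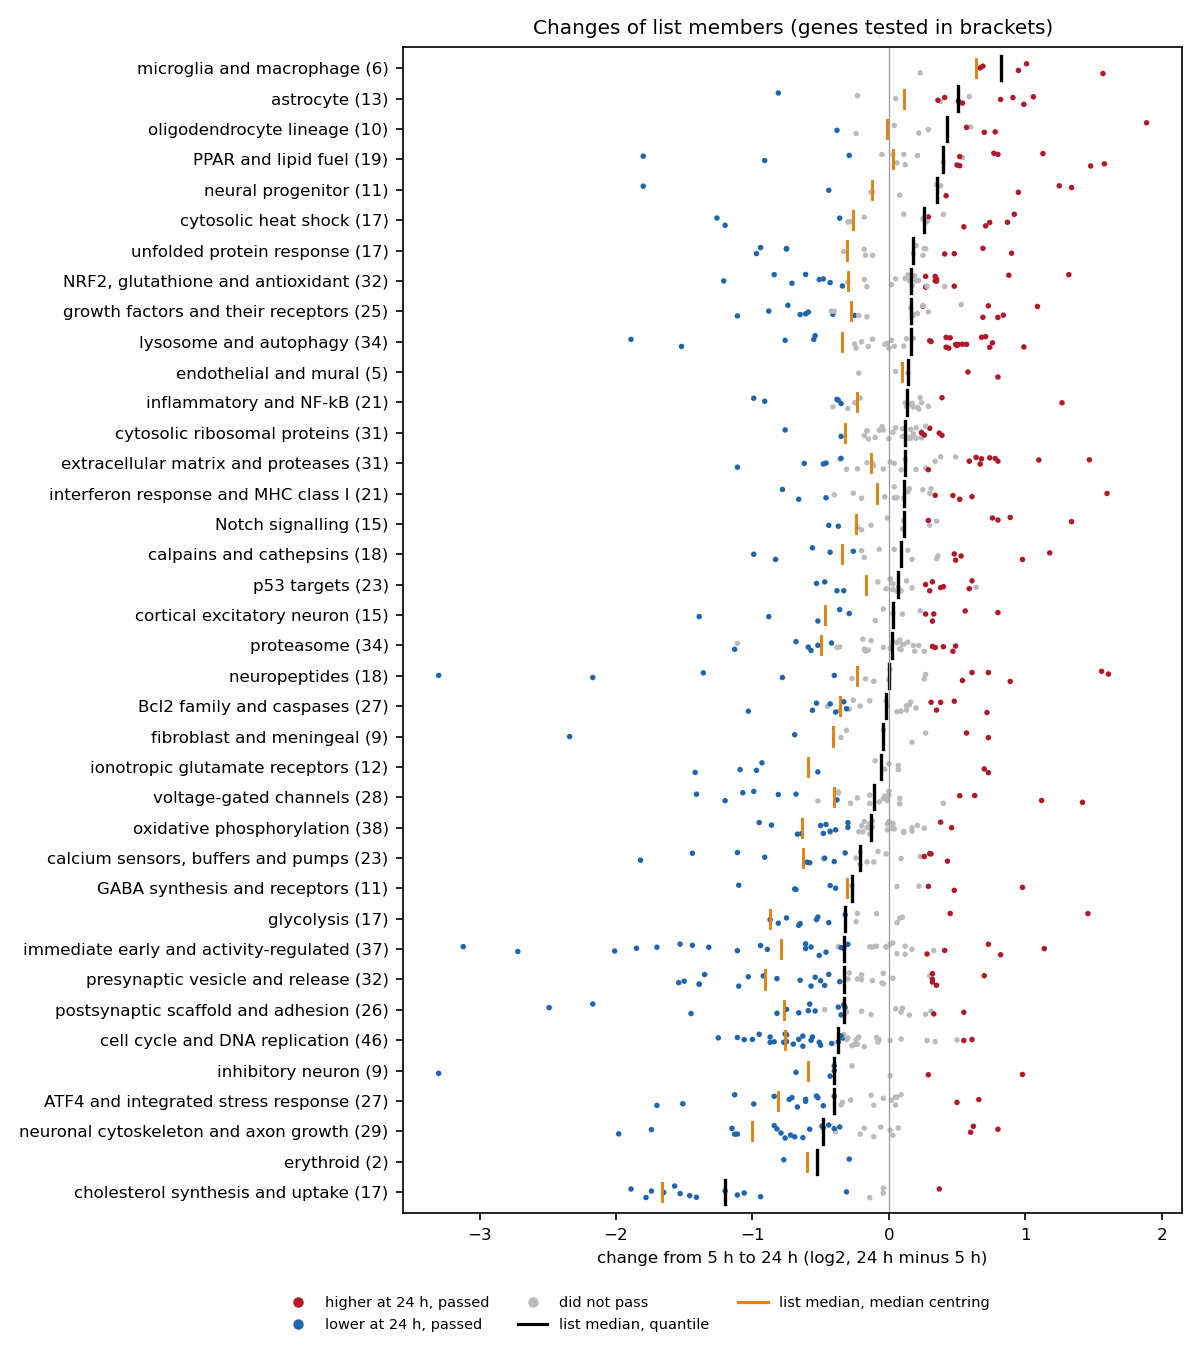
Change from 5 h to 24 h (horizontal axis, log2, 24 h minus 5 h) of every tested gene of each list, 1 point per gene, coloured by the test, with the list median under quantile normalisation (black) and under median centring (orange). Cholesterol synthesis has the lowest median at -1.20 and the microglia and macrophage list the highest at 0.82, and the orange median lies to the left of the black one throughout.

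Marker lists of cell types bear on what the cultures held. Neuronal markers were present at both times, with all 15 measured excitatory markers tested and a summed level, in linear normalised signal, of 16658 to 17201 at 5 h and 15410 to 17922 at 24 h, overlapping ranges. Of these 15, 5 rose and 5 fell, with a median of 0.03, or -0.47 after median centring, including falls of Slc17a7 and Cux1 (-0.88 ± 0.12) and rises of Sox5 (0.80 ± 0.08) and Cux2 (0.56 ± 0.11), where neither rise passed after median centring. Of the other probes, 1 of 3 for Cux1 also fell (-0.83 ± 0.13) and none of 3 for Sox5 passed. Of 9 inhibitory markers tested, 5 fell and 2 rose, and the summed level was 8797 to 9593 at 5 h and 8330 to 9249 at 24 h, while Gad2, Lhx6 and Vip were detected on none of the 6 arrays. The excitatory sum includes Nrn1, whose mean was 8.68 in the controls, 11.75 at 5 h and 11.47 at 24 h, and it does not measure neuron number. In bulk RNA, fewer cells of a type and less RNA per cell cannot be told apart.

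Most astrocyte markers tested were higher at 24 h, a balance that depended on the scaling. Of 13 astrocyte markers tested (of 16 listed), 8 rose, 1 fell and 4 did not pass, with a median of 0.51. After median centring the median was 0.11, with 3 called higher and 2 lower. Their summed level was 25295 to 25907 at 5 h and 35279 to 39592 at 24 h. On the 15 h arrays it was 42875 to 43817, and on the vehicle arrays 19983 to 21145. Gfap, the intermediate filament gene of astrocytes, read 6.32, 6.23 and 6.44 at 5 h and 7.38, 7.33 and 7.03 at 24 h, above controls of 5.42 to 5.83 at both times. Apoe (1.06 ± 0.11), Clu (0.99 ± 0.09) and the gap junction gene Gja1 (0.82 ± 0.13, not passing after median centring) rose, and S100b and Slc1a2 were not detected. Of 10 oligodendrocyte lineage markers (of 14 listed), 4 rose and 1 fell, with a median of 0.43. After median centring the median was -0.01, with 1 called higher and 3 lower. Gpr17, a receptor gene of oligodendrocyte precursors, was far below its controls (8.02 to 8.26) at 5 h with 6.30, 6.14 and 6.22, and close to them at 24 h, with 7.94 and 7.99 just below all 6 and 8.39 above all 6. The summed level was 11615 to 12972 in the controls, 8690 to 9338 at 5 h and 13176 to 15968 at 24 h. It mostly follows Olig1, by far the brightest member, with means of 13.22 in the controls, 12.67 at 5 h and 13.38 at 24 h. Olig1 changed by 0.70, or 0.18 after median centring.

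Microglia and macrophage markers had the highest median of the lists, from low levels. Of 6 tested (of 16 listed), 5 rose and 1, Aif1 (0.23), did not pass, with a median of 0.82, and 0.64 after median centring. C1qa (0.67), 1 of the 5, was detected on no array at 5 h and was tested through its 24 h arrays alone. Lgals3, the galectin-3 gene, read 6.74, 6.83 and 6.62 at 5 h and 8.06, 7.97 and 8.86 at 24 h, the lysozyme gene Lyz2 5.98, 6.21 and 6.03 against 7.01, 6.97 and 7.28, and the complement gene C1qc 4.87, 4.92 and 5.06 against 5.71, 5.97 and 6.01. The summed level went from between 467 and 476 at 5 h to between 740 and 1045 at 24 h, with 489 to 528 in the controls. The defining markers Itgam, Tyrobp, Fcer1g, Ptprc, Ctss and P2ry12 were detected on none of the 6 arrays. Of 11 neural progenitor markers (of 16 listed), 4 rose and 2 fell, with a median of 0.35, or -0.12 after median centring, and a summed level of 11617 to 12666 at 5 h and 16521 to 18325 at 24 h. Ednrb, an endothelin receptor gene shared with astrocytes, rose by 1.25 ± 0.09 (mean 11.81 to 13.07) and carried most of the rise of that sum. Notch1 (1.34), Prom1 (0.95) and Neurog2 (0.42) rose too. The 2 that fell were Fabp7 (-1.80) and Nes (-0.44), and Vim (-0.12) and Sox2 (0.08) were among those that did not pass. Of 5 endothelial and mural markers (of 13 listed), 2 rose, with summed levels of 830 to 905 at 5 h and 1000 to 1682 at 24 h, and 1 was called higher after median centring. The other, Acta2 (0.58 ± 0.18), did not pass there or without the block, nor did its 2 other probes (0.19 and -0.02), and Cdh5, Kdr, Flt1 and Tek were detected on none of the 6 arrays. Acta2 was by far the brightest of these markers (mean 9.14 at 5 h and 9.73 at 24 h), so that their sum mostly follows it. Of 9 fibroblast markers (of 14 listed), 2 rose and 2 fell, with a median of -0.04, or -0.41 after median centring, where neither rise (Pdgfra and S100a6) passed and 5 were called lower. The fibroblast markers had summed levels of 4903 to 5017 and 4863 to 5230, and both erythroid markers tested fell. The part of such cells in the changes of Serpina3n, Apoe, Notch1 and the matrix, lysosome and fatty acid genes was not tested.

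**Figure D4:**
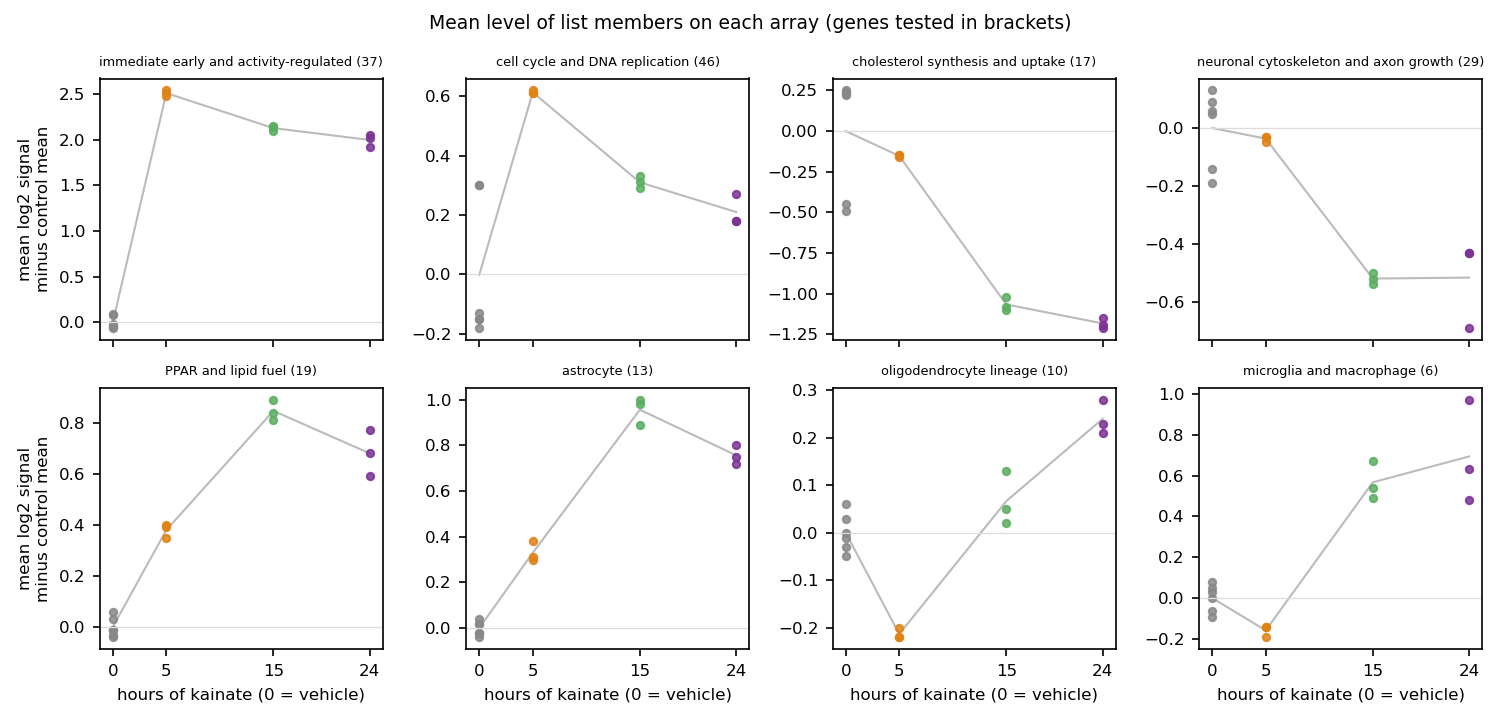
Mean log2 signal of the tested members of 8 lists on each array, minus the mean of the 6 controls (vertical axis), by hours of kainate (horizontal axis, vehicle at 0), with points for arrays and a line through group means. Immediate early genes decline from 2.48 or more to 2.05 or less above the controls, cholesterol genes leave the control range between 5 h and 15 h, and astrocyte markers are highest at 15 h.

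Most of the difference between 5 h and 24 h was already present at 15 h. For the 147 genes that rose by 2-fold or more, the 15 h mean stood at a median of 94.6% of the way from the 5 h to the 24 h mean (quartiles 82.4% and 108.4%), and 59 had passed their 24 h level. For the 257 that fell by 2-fold or more the median was 86.0% (71.8% and 99.0%), with 61 beyond. Gpr17 (49.2%), Atf3 (50.9%) and Lims2 (65.7%) were among those with a larger part of their change after 15 h, while Notch1 (124%), Bdh2 (118%) and Tap2 (115%) were past their 24 h value at 15 h. These shares use the same 5 h and 24 h means as the selection and carry no test.

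Set against the 6 controls, the rises and falls from 5 h to 24 h fell into several classes, where above or below means that all 3 arrays lay beyond all 6 controls. Of the 2250 genes that rose, 622 (27.6%) were neither at 5 h and above at 24 h, and 673 (29.9%) were below at 5 h and neither at 24 h. Among the 1892 that fell, 415 (21.9%) were above only at 5 h and 559 (29.5%) were below only at 24 h. A further 117 of the rises and 102 of the falls crossed from 1 side of the controls to the other. Without control replicates 1 and 3, which stood apart from the other 4 in the cholesterol list, the same 4 classes held 572 (25.4%), 662 (29.4%), 458 (24.2%) and 459 (24.3%). The genes were chosen by the same 5 h and 24 h arrays, so that these shares follow in part from that choice and carry no test. Shares among all tested genes are not given here.

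The 24 h array of beadchip 3 stood somewhat apart. Its mean correlation with the other 2 arrays at 24 h was 0.985 against 0.989 and 0.990 for those, and for Gria1, Stat3, Lgals3, Cldn11 and Acta2 it differed from both by more than their own gap. Without it 6601 probes were called, and without the 5 h array of beadchip 2 the higher probes numbered 1947. Without beadchip 1 or beadchip 2 the count was 3009 or 3012, and with only the 6 arrays compared and no 15 h arrays it was 4435. Signals were the means of a median of 34 or 35 beads per probe, array medians were 62.0 to 70.4 intensity units at 5 h and 53.4 to 57.0 at 24 h, and 52.1% to 53.5% and 51.0% to 52.5% of the targets were detected. The number of arrays, 3 per time, limits the precision.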

How the data were processed

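Bead-array RNA signals of 15 samples were used, of which the 6 at 5 h and 24 h were compared. The authors deposited mean bead intensities exported without normalization, per the file headers, with a detection fraction of 1 minus the detection p-value. A second table deposited by the authors gives linear ratios. No header states their rule, but dividing a signal first by its array's median and then by the target's control median gave every ratio to within 1% (100% of values). Bead counts were deposited beside the signals and used only as a measure of depth. The 72 columns of 9 other arrays were not used. Platform annotation gave 20854 of 24607 targets 1 symbol and 3752 none, and 1 had several and stayed unnamed.

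After 1 bright target with detection p above 0 had been left out, limma 3.58.1 (R 4.3.3) corrected the background (normexp on inferred negative controls, offset 16) and quantile-normalised the arrays. A probe was tested if 3 or more of the 6 arrays had a detection p below 0.05. A probe detected only at 5 h or only at 24 h therefore entered through the group where it was high. This holds for 75 probes called higher and 162 called lower, among them Bves, Plin4, Hadha and C1qa (24 h) and Nxph2 (5 h), and their direction is not separate support. Linear models with the beadchip as a block were fitted to the 9 kainate arrays (residual degrees of freedom 4, prior 4.1), and all p-values named here are from limma, Benjamini-Hochberg adjusted over all tested probes. The replicate number of the kainate titles equals the beadchip on which the array lay, which is the source of the pairing. Deviations of the 5 h and 24 h arrays of the same beadchip correlated at 0.08, 0.00 and -0.08. A gene is represented by its brightest probe over the 6 arrays. Errors are standard errors of the model. A fold against a group in which no array detected the probe is a lower bound, set against the lowest detected signal of each array (or the probe's own, if higher) from means of normalised log2 values.

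Genes were named by rule: the 12 largest rises and falls, and up to 4 members of each list, among genes that passed, moved the same way on all beadchips and were detected on every array of the brighter group. Smaller changes and counts of list members complete the description. The comparison, the members and the lists were chosen with earlier results of these data known. The fit was tested on simulated data. Alternatives were the block, the arrays fitted, background, scaling, detection filter and leaving out arrays. Figures were drawn with matplotlib 3.10.9 (Python 3.11.15).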

Additional observations from a re-analysis of the deposited data

Results flagged for a closer look

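Among the 156 named genes, 7 had 1 control array far from the other 5 (Dixon's ratio above the critical value for 6 samples, which chance exceeds in about 1 of 20 groups). Control replicate 1 was high for Egr2 (5.85, others 4.94 to 5.12) and low for Crmp1 (12.60, others 12.74 to 12.82). Control replicate 3 was high for Slc24a4 (5.27, others 4.41 to 4.70) and Atf3 (4.98, others 4.31 to 4.47). Control replicate 6 was low for Lox (4.77, others 5.16 to 5.36) and Olig1 (13.10, others 13.21 to 13.27), and control replicate 4 was high for C1qb (5.35, others 4.67 to 4.90). The controls take no part in the difference between 5 h and 24 h, but they set the ranges given beside these genes. With groups of 3 arrays the kainate times could not be examined in this way.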

How the results depend on the processing

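The count of 5730 probes was 5769 with no replicate block for the beadchip and 5800 with it as a random block, and without the block 2 of the 156 named genes, Sdhd and Acta2, lost their calls. Median centring gave 880 higher and 6272 lower probes and the authors' ratios 1033 and 5654, against 2922 and 2808. Centring on the median of the tested probes, added after seeing the data, gave 4122 and 2493. Leaving out arrays or beadchips gave 3009 to 6601 calls, 1459 to 3454 higher and 1536 to 3147 lower. Vcam1 and Rpl5 changed sign under median centring (both -0.16) and in the authors' ratios (both -0.07), and no other named gene changed sign under any alternative run. Named genes that lost their call numbered 16 under median centring, 6 in the ratios, 17 without beadchip 1 and 12 without beadchip 2, and 137 of 156 passed in every fit that left out arrays. Of 49 other tested probes of 36 named genes, 35 gave the same call, 14 did not pass and 0 were called in the opposite direction. Some that did not pass had the opposite sign, as for Aen (-0.19 against 0.59) and Cux1 (0.15 against -0.88). Probes with the same call could differ in size, as for Gcnt1 (0.88 against 2.20) and Srxn1 (-1.45 against -0.84). Over all genes, 65 had tested probes called in opposite directions, and each gene was counted by its brightest probe. The causes were not tested. Levels near background, as for Slc24a4, Bves, Nxph2 and the microglia markers, limit the folds given.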
